A study of Mus musculus with 28 samples.

Results

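The cytosolic heat shock chaperones described here are 10 genes given by name: Hspa1a, Hspa1b, Hspa8, Hsph1, Dnajb1, Dnaja1, Hsp90aa1, Hsp90ab1, Hspb1 and Bag3. Each symbol matched 1 of the 48709 gene rows counted in the CA1 field of the mouse hippocampus. All 10 were among the 17009 genes that passed the low-count filter. The libraries came from 3 groups of mice 3 months old. In the vorinostat group (9 libraries), CamkIIδC transgenic mice drank water with vorinostat (SAHA), a drug that inhibits histone deacetylases, for 4 weeks from 2 months of age. In the transgenic vehicle group (9 libraries), CamkIIδC transgenic mice drank vehicle, and in the wildtype vehicle group (10 libraries) wildtype littermates drank vehicle. As background, CamkIIδC is 1 form of the calcium/calmodulin-dependent protein kinase II, and its production in heart muscle makes these mice a model of heart failure. Males and females were both included, without a record of which library is which in the sources used here. Wildtype mice on vorinostat were not analysed here. Whether each library is 1 mouse is not stated in the labels, and the p-values then reflect the spread between libraries, some of which may be technical.

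Heat shock chaperones bind unfolded or partly folded proteins and hold them in a state from which they can fold or be passed on for degradation. HSP70 proteins do this in cycles of ATP hydrolysis that J-domain proteins start and nucleotide exchange factors end, and HSP90 proteins act later on a narrower set of clients such as kinases and steroid receptors. When misfolded proteins accumulate, the transcription factor HSF1 binds heat shock elements in the promoters of many of these genes, while some family members are made at all times, and neurons are known for a high content of the constitutive forms.

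The libraries held 20230085 to 33191857 counts each, with a median of 23807060.5. All 6 listed CA1 pyramidal markers were counted in every library, at a summed 961 to 1352 CPM (counts scaled to the library total) in vorinostat, 1072 to 1491 CPM in transgenic vehicle and 1101 to 1433 CPM in wildtype vehicle libraries. Mitochondrially encoded genes held 6.39 to 7.48% of the counts in vorinostat 6, 7 and 9 and wildtype vehicle 2, against 2.84 to 4.11% in the other 24 libraries. Summed hemoglobin ranged over 75.9 to 135 CPM in those 4 and over 16.9 to 52.1 CPM in the 24. The 4 libraries are marked in the plot of values by library, and the main differences are also given without them. In bulk tissue, fewer cells of a type and less RNA per cell cannot be told apart.

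Per length of merged exons, the chaperones differed widely in abundance. Hsp90ab1, the constitutive HSP90 beta, averaged 544 ± 34.2 CPM per kb over all libraries (SD, n = 28), above 99.86% of the 16961 tested genes with a length. Hsph1, the HSP110 exchange factor of HSP70, averaged 42.7 ± 3.16 CPM per kb, and Hsp90aa1, the inducible HSP90 alpha, 38.1 ± 5.48 CPM per kb. The J-domain gene Dnajb1 averaged 15.5 ± 0.952 CPM per kb. Hspa8, which encodes the constitutive HSC70, averaged 10.3 ± 0.988 CPM per kb, and the J-domain gene Dnaja1 averaged 9.54 ± 1.24 CPM per kb. Bag3, a co-chaperone that links HSP70 to small heat shock proteins and to autophagy, followed at 3.77 ± 0.599 CPM per kb. The stress-inducible HSP70 genes Hspa1b and Hspa1a were at 1.32 ± 0.244 and 0.652 ± 0.118 CPM per kb. Hspb1, which encodes the small heat shock protein HSP25, was at 0.564 ± 0.188 CPM per kb, above only 16.55% of the tested genes. In this order, the ranges over libraries overlapped between Hsph1 and Hsp90aa1, between Hspa8 and Dnaja1, between Hspa1b and Hspa1a and between Hspa1a and Hspb1. On this scale of exon length, the other neighbours were separate in every library.

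**Figure D1:**
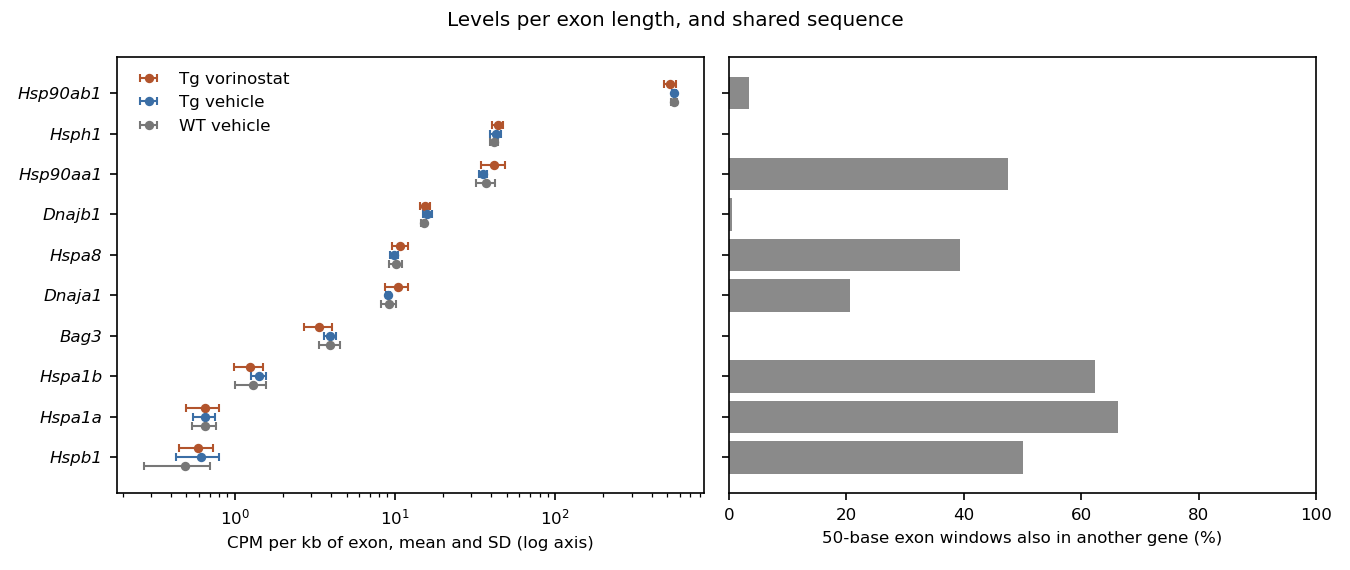
Left, the level of each chaperone transcript in CPM per kb of merged exon on a log axis, with points for the group means and bars for the SD over 9 vorinostat, 9 transgenic vehicle and 10 wildtype vehicle libraries. Right, the share of each gene's 50-base exon windows that also occur in the transcripts of another gene, from 0% for Hsph1 and Bag3 to 66.3% for Hspa1a.

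These levels depend on how reads that match several genes were counted, a setting not given in the sources used here. Reads were 50 bases long. Of all 50-base windows in the transcripts of a gene, 66.3% of those of Hspa1a and 62.3% of those of Hspa1b also occur in another gene. The share was 50.1% for Hspb1, 47.5% for Hsp90aa1, 39.4% for Hspa8 and 20.6% for Dnaja1. It was 3.44% for Hsp90ab1, 0.412% for Dnajb1 and 0% for Hsph1 and Bag3. In the coding sequence alone, windows found in no other gene made up 12.9% in Hspa1a, 17.7% in Hspa1b, 9.32% in Hspa8, 11.03% in Dnaja1, 14.6% in Hsp90aa1 and 12.98% in Hspb1. The same figure was 94.8% in Hsp90ab1 and 100% in Hsph1, Dnajb1 and Bag3. A 50-base read from most of the coding sequence of the first 6 of these genes thus matches at least 1 other annotated gene. Per kb of windows found in no other gene, in place of exon length, Hsp90aa1 stood at 71.6 ± 10.3 CPM and Hspa8 at 15.4 ± 1.48 CPM (SD, n = 28). Hsp90aa1 was then above Hsph1 (41.4 ± 3.06 CPM), and Hspa8 was close to Dnajb1 (15.8 ± 0.971 CPM). Likewise, Hspa1b (3.57 ± 0.659 CPM) was close to Bag3 (3.84 ± 0.611 CPM). Levels of these 6 genes relative to the other 4 are uncertain for that reason. The exons of Hspa1a also overlap Gm20481 over 19.0% of their bases, those of Dnaja1 overlap Gm6297, Mir207 and Smu1 over 10.8%, and those of Hspa8 hold the small nucleolar RNAs Snord14c, Snord14d and Snord14e over 6.09%. The library kit does not mark strand, so reads from such overlaps cannot be told apart.

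Windows from the coding sequences of Hspa8 and Hsp90aa1 show what a read could and could not place. Each is 50 bases of the GENCODE transcript, 5′ to 3′, with positions counted from the first base of the start codon. The first line of Hspa8 (bases 115 to 164 of 1938) occurs in Gm26825 as well, and the second (bases 65 to 114) in no other gene. Likewise, the first line of Hsp90aa1 (bases 1 to 50 of 2199) occurs in the pseudogene Gm12346 as well, and the second (bases 47 to 96) in no other gene.
Hspa8 shared: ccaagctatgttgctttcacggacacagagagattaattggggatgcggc
Hspa8 unshared: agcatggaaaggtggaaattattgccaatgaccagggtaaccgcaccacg
Hsp90aa1 shared: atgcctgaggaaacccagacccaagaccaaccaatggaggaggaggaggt
Hsp90aa1 unshared: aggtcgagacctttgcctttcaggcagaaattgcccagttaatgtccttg
Gm26825, annotated as a long noncoding RNA on chromosome 5, holds 83.4% of the coding windows of Hspa8 and was itself counted at 334 to 669 reads per library, a mean of 18.01 CPM. Gm12346, on chromosome 11, holds 74.8% of those of Hsp90aa1 and was counted at 5 to 31 reads.

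Hspa1a and Hspa1b lie next to each other on chromosome 17 and are near-identical copies, also upstream of their starts. They share 58.8% of the windows of Hspa1a and 62.3% of those of Hspa1b. The 250 bases before each start are printed to show how alike the copies are there. They come from RefSeq (GRCm38.p6, minus strand), chr17:34972157-34972406 for Hspa1a and chr17:34959239-34959488 for Hspa1b, and run 5′ to 3′ with the start after the last base. Capitals mark the 3 bases at which the sequences differ, and the other 247 are the same.
Hspa1a: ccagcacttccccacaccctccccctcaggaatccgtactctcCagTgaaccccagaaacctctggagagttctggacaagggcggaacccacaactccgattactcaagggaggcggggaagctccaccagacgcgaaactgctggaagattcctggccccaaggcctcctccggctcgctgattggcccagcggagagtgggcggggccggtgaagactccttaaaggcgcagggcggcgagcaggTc
Hspa1b: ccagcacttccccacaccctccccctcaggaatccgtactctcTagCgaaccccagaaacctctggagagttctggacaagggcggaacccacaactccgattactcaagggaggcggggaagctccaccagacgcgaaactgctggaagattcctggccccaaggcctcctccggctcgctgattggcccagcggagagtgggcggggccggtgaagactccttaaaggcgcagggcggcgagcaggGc
Heat shock elements are built of inverted repeats of the unit GAA, and a search was made for 3 units with no mismatch (GAANNTTCNNGAA or TTCNNGAANNTTC, N being any base) and for 2 units (GAANNTTC or TTCNNGAA, which also lie inside each match of 3 units). The windows ran from 250 bases before to 50 bases after each start, and both strands were covered. The promoter table held 11 entries for 7 of the 10 genes. Hspa8, Hsp90aa1 and Hsp90ab1 had no entry and were not searched, and Dnajb1 was searched without a match of either form. The 3-unit form was found in 198 of 32851 promoters (0.603%) and, among these genes, in that of Hsph1 alone, as TTCTGGAAAGTTC beginning 16 bases downstream of 1 annotated start and 37 bases downstream of the other. The 2-unit form was found in 15.1% of all promoters and in 7 of the 11 entries, from the 6 genes Bag3, Dnaja1, Hspa1a, Hspa1b, Hspb1 and Hsph1. In Hspa1a and Hspa1b the match GAAGATTC began 104 bases upstream of the start in both. A match is a description of the letters and not a site of binding.

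None of the 10 genes passed the threshold in any comparison. In edgeR's quasi-likelihood test with Benjamini-Hochberg adjustment over all 17009 genes, 0 of 10 were called for vorinostat against transgenic vehicle, for transgenic vehicle against wildtype vehicle and for vorinostat against wildtype vehicle. The background was as low, with 0.0% of all genes called in each. DESeq2 called 1 gene in all for vorinostat against transgenic vehicle and 0 in the other comparisons, voom called 0 in each, and none of these was a chaperone of the set. At an unadjusted p under 0.05, 3 of 10 stood for vorinostat against transgenic vehicle, where 14.4% of all genes did, with 2 higher (7.75% of all genes) and 1 lower (6.64%). For transgenic vehicle against wildtype vehicle the count was 0 of 10, where 1.33% of all genes stood, 0.67% higher and 0.664% lower. For vorinostat against wildtype vehicle it was again 3 of 10, where 12.6% of all genes stood, with 2 higher (6.87%) and 1 lower (5.71%). The 3 genes were Dnaja1, Hsp90aa1 and Bag3 both times, in comparisons that share the vorinostat libraries. The ranges of the groups overlapped for each of the 10 genes in each comparison, as they did for all other genes (0.0% without overlap).

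**Figure D2:**
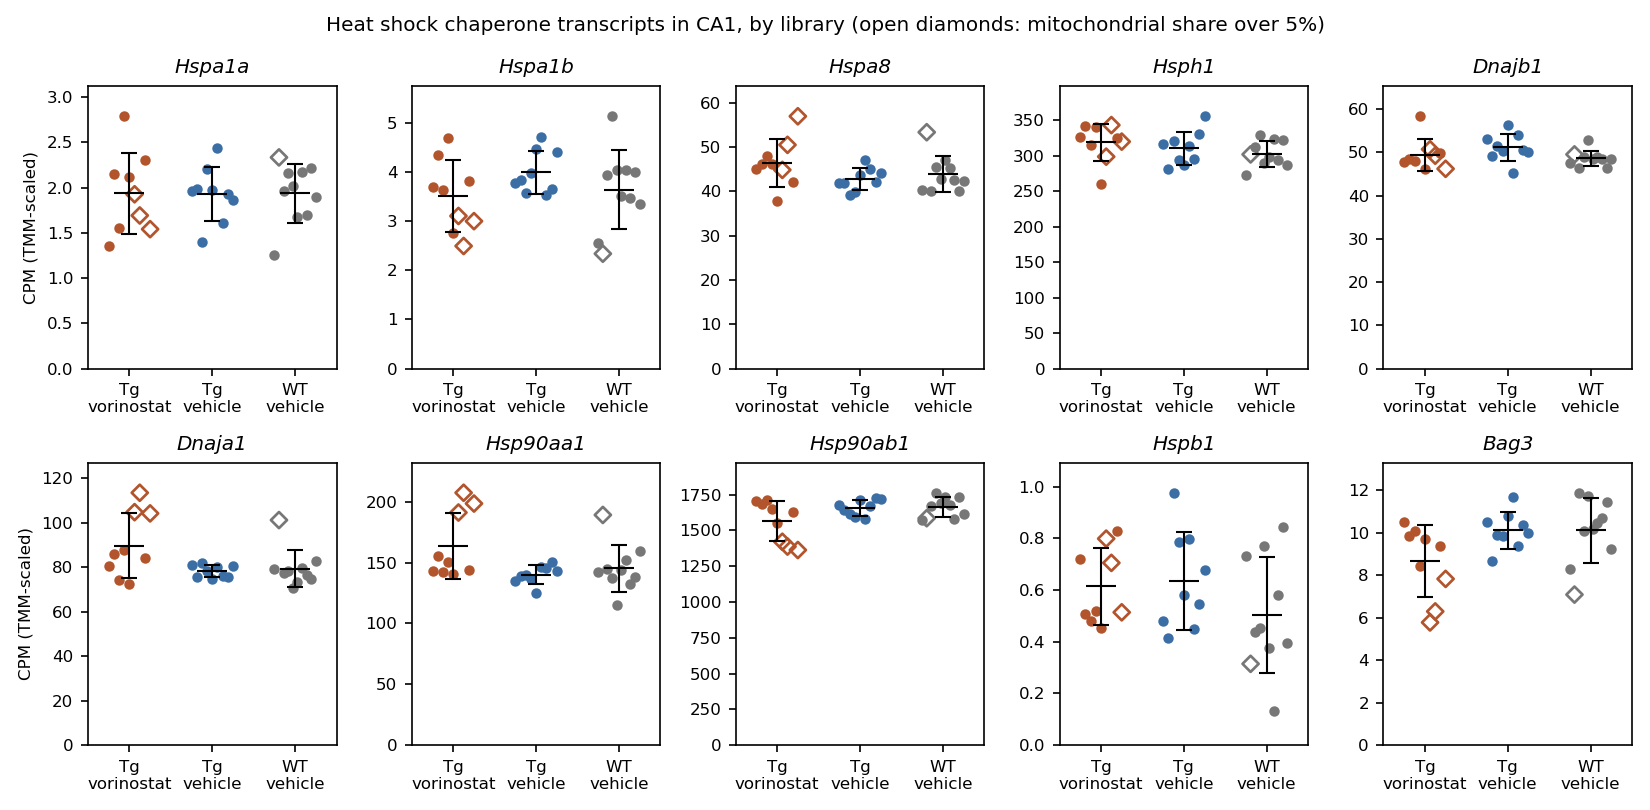
CPM of each chaperone transcript by library, from 0 on a linear axis, with bars for mean and SD in the groups Tg vorinostat (n = 9), Tg vehicle (n = 9) and WT vehicle (n = 10). Open diamonds are the 4 libraries with a mitochondrial share over 5%; they lie at the top for Dnaja1 (101 to 113 CPM) and Hsp90aa1 (189 to 208 CPM) and at the bottom for Bag3 (5.78 to 7.83 CPM).

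Among the HSP70 genes, the ranges of the groups overlapped and none passed the threshold. Hspa1a (ENSMUSG00000091971, GRCm38 chromosome 17, 34969190 to 34972156, minus strand) ran from 1.36 to 2.79 CPM with a median of 1.93 in vorinostat libraries, from 1.40 to 2.44 with a median of 1.96 in transgenic vehicle libraries and from 1.25 to 2.33 with a median of 1.99 in wildtype vehicle libraries. The groups lay on top of each other. With 29 to 75 reads per library, its precision was limited, and its log2 fold change for vorinostat against transgenic vehicle was 0.01 with a 95% interval from -0.26 to 0.27 (edgeR adjusted p = 0.980). Hspa1b (ENSMUSG00000090877, chromosome 17, 34956436 to 34959238, minus strand) ran from 2.49 to 4.68 CPM with a median of 3.63 in vorinostat, from 3.52 to 4.70 with a median of 3.82 in transgenic vehicle and from 2.33 to 5.13 with a median of 3.73 in wildtype vehicle libraries. Of the 9 vorinostat libraries, 4 were below every transgenic vehicle library, and vorinostat 6, 7 and 9 were 3 of those 4. The log2 fold change for vorinostat against transgenic vehicle was -0.18 (SE 0.124, edgeR adjusted p = 0.425) over all libraries and -0.06 (SE 0.117, adjusted p = 0.973) without the 4 libraries of high mitochondrial share. Because reads can be placed on either copy, the counts of both were also summed. The sum ran from 4.18 to 7.47 CPM (median 5.05) in vorinostat, from 4.97 to 7.14 CPM (median 5.81) in transgenic vehicle and from 3.796 to 7.29 CPM (median 5.57) in wildtype vehicle libraries. Its log2 fold changes were -0.12 (SE 0.108) for vorinostat against transgenic vehicle, 0.09 (SE 0.105) for transgenic vehicle against wildtype vehicle and -0.03 (SE 0.106) for vorinostat against wildtype vehicle, with edgeR adjusted p-values of 0.545, 0.9998 and 0.896. With the 4 libraries left out, the sum averaged 5.87 ± 1.02 CPM in the other 6 vorinostat libraries, 5.92 ± 0.674 CPM in the 9 transgenic vehicle libraries and 5.67 ± 0.973 CPM in the other 9 wildtype vehicle libraries (SD), closer together than over all libraries.

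Hspa8 (ENSMUSG00000015656, chromosome 9, 40800984 to 40810087, plus strand) ran from 37.9 to 56.9 CPM with a median of 46.1 in vorinostat, from 39.2 to 47.0 with a median of 42.2 in transgenic vehicle and from 40.0 to 53.3 with a median of 42.6 in wildtype vehicle libraries. The highest value of the vorinostat group was in vorinostat 9 and that of the wildtype group in wildtype vehicle 2, both of high mitochondrial share. The log2 fold change of Hspa8 for vorinostat against transgenic vehicle was 0.12 (SE 0.0612, edgeR adjusted p = 0.352), and 0.04 (SE 0.0497, adjusted p = 0.966) without the 4 libraries. Hsph1 (ENSMUSG00000029657, chromosome 5, 149614287 to 149636376, minus strand), whose windows are all its own, ran from 260.6 to 343 CPM with a median of 324 in vorinostat, from 282 to 355 with a median of 314 in transgenic vehicle and from 273 to 329 with a median of 299.6 in wildtype vehicle libraries. Its groups overlapped, and the lowest library of all was in the vorinostat group and the highest in the transgenic vehicle group. At 6330 to 9761 reads per library, the 95% interval of its difference for vorinostat against transgenic vehicle ran from -4.72 to 10.8% (log2 fold change 0.04, edgeR adjusted p = 0.702).

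The J-domain genes differed from each other in how they spread. Dnajb1 (ENSMUSG00000005483, chromosome 8, 83608193 to 83612653, plus strand), the HSP40 that works with inducible HSP70, ran from 46.2 to 58.4 CPM with a median of 48.6 in vorinostat, from 45.2 to 56.5 with a median of 50.5 in transgenic vehicle and from 46.3 to 52.8 with a median of 48.6 in wildtype vehicle libraries. In 8 of 9 vorinostat libraries it was below the mean of the transgenic vehicle group, and vorinostat 4 was above every other library. Its log2 fold change for vorinostat against transgenic vehicle was -0.05 (SE 0.0441, edgeR adjusted p = 0.545), and -0.04 (SE 0.0467) without the 4 libraries. Dnaja1 (ENSMUSG00000028410, chromosome 4, 40722150 to 40737149, plus strand), a farnesylated HSP40 of the cytosol, ran from 72.3 to 113 CPM with a median of 86.1 in vorinostat, from 74.8 to 81.8 with a median of 78.3 in transgenic vehicle and from 70.6 to 101 with a median of 77.9 in wildtype vehicle libraries. Of the 9 vorinostat libraries, 6 were above every transgenic vehicle library and 2 were below all of them, so the vorinostat group was the wider one, with an SD of 14.5 CPM against 2.72 CPM. Dnaja1 thus had, for vorinostat against transgenic vehicle, a log2 fold change of 0.20 (SE 0.0726, edgeR unadjusted p = 0.0107, adjusted p = 0.345). Without the 4 libraries of high mitochondrial share it was 0.04 (SE 0.0408, unadjusted p = 0.291, adjusted p = 0.966).

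Of the HSP90 genes, Hsp90aa1 and Hsp90ab1 had means that lay on opposite sides of the vehicle groups. Hsp90aa1 (ENSMUSG00000021270, chromosome 12, 110690605 to 110702728, minus strand) ran from 140.6 to 208 CPM with a median of 150.3 in vorinostat, from 125 to 151 with a median of 139.9 in transgenic vehicle and from 115 to 189 with a median of 143 in wildtype vehicle libraries. All 9 vorinostat libraries were above the mean of the transgenic vehicle group, and 4 of them were above its highest library. The log2 fold change was 0.22 (SE 0.0810, edgeR unadjusted p = 0.00997, adjusted p = 0.345), and without the 4 libraries 0.05 (SE 0.0498, unadjusted p = 0.285, adjusted p = 0.966). Hsp90ab1 (ENSMUSG00000023944, chromosome 17, 45567775 to 45573271, minus strand) ran from 1363 to 1713 CPM with a median of 1627 in vorinostat, from 1577 to 1726 with a median of 1669.9 in transgenic vehicle and from 1573 to 1764 with a median of 1672 in wildtype vehicle libraries. The lowest 3 libraries of all were vorinostat 6, 7 and 9, followed by vorinostat 5 at 1555 CPM, and the other 5 vorinostat libraries lay among the vehicle ones. The log2 fold change of Hsp90ab1 for vorinostat against transgenic vehicle was -0.08 (SE 0.0482, edgeR adjusted p = 0.379), and -0.01 (SE 0.0345, adjusted p = 0.995) without the 4 libraries. The ratio of Hsp90aa1 to Hsp90ab1 counts, in which scaling cancels, had medians of 0.0910 in vorinostat, 0.0858 in transgenic vehicle and 0.0851 in wildtype vehicle libraries. Its highest value was 0.150 in vorinostat, 0.0930 in transgenic vehicle and 0.119 in wildtype vehicle libraries. Among the 24 other libraries the highest were 0.0922 in vorinostat, 0.0930 in transgenic vehicle and 0.0987 in wildtype vehicle libraries.

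Hspb1 (ENSMUSG00000004951, chromosome 5, 135887919 to 135889563, plus strand) was near the lower limit of these libraries, with 3 to 26 reads each. It ran from 0.453 to 0.828 CPM with a median of 0.521 in vorinostat, from 0.412 to 0.976 with a median of 0.581 in transgenic vehicle and from 0.133 to 0.846 with a median of 0.445 in wildtype vehicle libraries. The vorinostat range lay inside that of the transgenic vehicle group, and the interval of the log2 fold change for vorinostat against transgenic vehicle ran from -0.51 to 0.40 (edgeR adjusted p = 0.916). Bag3 (ENSMUSG00000030847, chromosome 7, 128523616 to 128546981, plus strand) ran from 5.78 to 10.5 CPM with a median of 9.39 in vorinostat, from 8.66 to 11.7 with a median of 9.97 in transgenic vehicle and from 7.09 to 11.9 with a median of 10.3 in wildtype vehicle libraries. In 8 of 9 vorinostat libraries Bag3 was below the transgenic vehicle mean, and in 4 it was below the lowest transgenic vehicle library. On the log2 scale the difference was -0.22 (SE 0.103, edgeR unadjusted p = 0.0397, adjusted p = 0.345), and -0.07 (SE 0.0747, unadjusted p = 0.371, adjusted p = 0.966) without the 4 libraries.

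**Figure D3:**
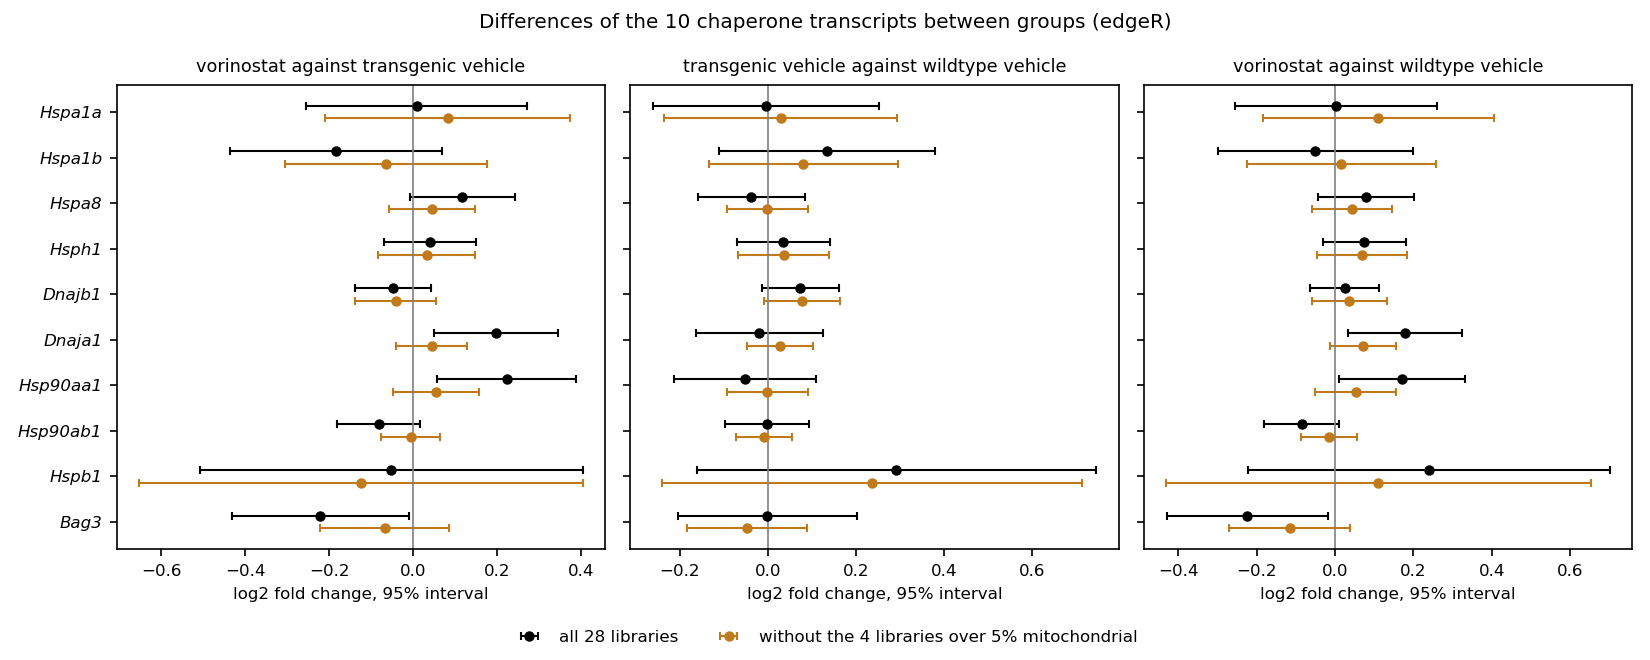
Log2 fold changes of the 10 chaperone transcripts with 95% intervals from edgeR for vorinostat against transgenic vehicle, transgenic vehicle against wildtype vehicle and vorinostat against wildtype vehicle, over all 28 libraries (black) and without the 4 libraries of high mitochondrial share (orange). In the left panel the intervals of Dnaja1, Hsp90aa1 and Bag3 exclude 0 in black and include it in orange.

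The values of Dnaja1, Hsp90aa1 and Bag3 separated the 4 libraries with a mitochondrial share over 5% from the other 24. Dnaja1 was at 101 to 113 CPM in the 4 libraries over 5% and at 70.6 to 87.8 CPM in the other 24. Hsp90aa1 was at 189 to 208 CPM in the 4 and at 115 to 159 CPM in the 24, and Bag3 at 5.78 to 7.83 CPM in the 4 and at 8.28 to 11.9 CPM in the 24. The ranges of these 3 genes did not touch, and wildtype vehicle 2 lay with vorinostat 6, 7 and 9 each time. The 4 libraries were 3 of the 9 vorinostat, 0 of the 9 transgenic vehicle and 1 of the 10 wildtype vehicle libraries. Drug and mitochondrial share thus partly coincide, and whether the drug had a part in these values was not tested. Ranges that did not overlap were found for 9.99% of all tested genes in the higher direction and 11.2% in the lower, 21.2% in all, against 3 of the 10 chaperones, so the share is near that of all genes. The other 7 overlapped. Hspa1b averaged 2.73 ± 0.375 CPM in the 4 libraries and 3.87 ± 0.582 CPM in the 24 (SD), Hspa8 averaged 51.4 ± 5.11 and 43.1 ± 2.77 CPM, and Hsp90ab1 1440 ± 100.4 and 1664 ± 59.9 CPM. For Hsph1, Dnajb1, Hspa1a and Hspb1 the log2 ratio of the means of the 4 to those of the 24 lay between -0.05 and 0.03. The ratio of Hsp90aa1 to Hsp90ab1 was 0.119 to 0.150 in the 4 and 0.0680 to 0.0987 in the 24.

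**Figure D4:**
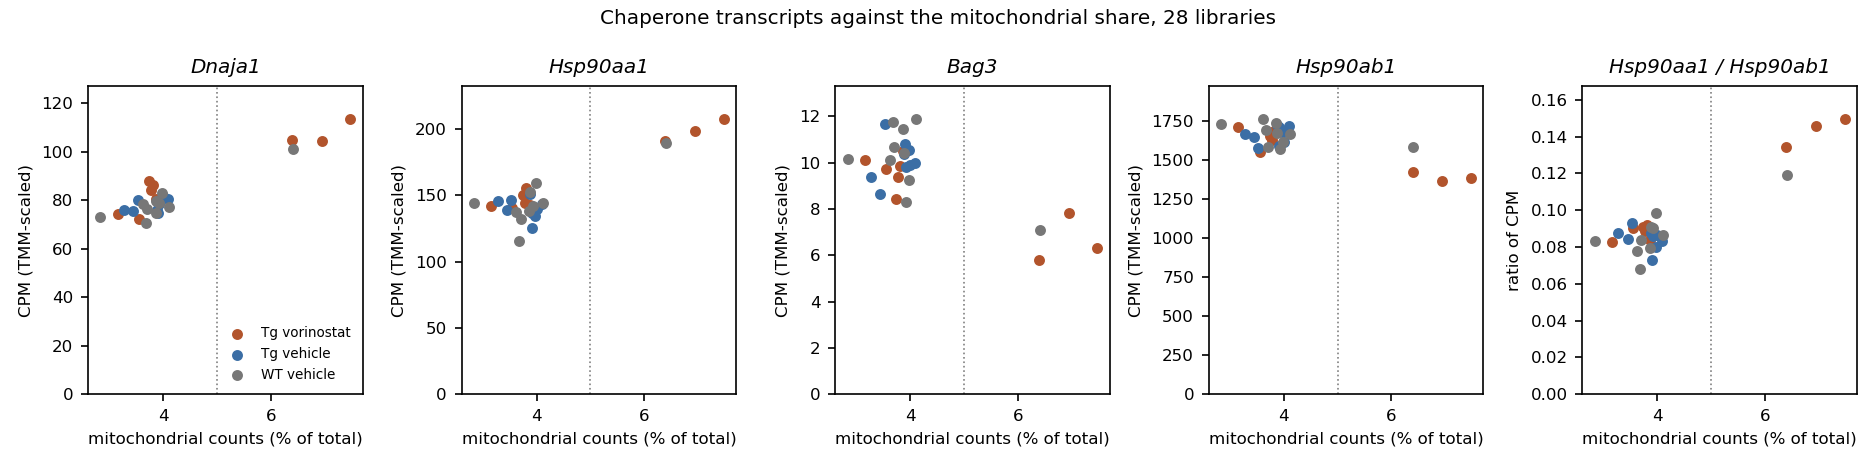
Dnaja1, Hsp90aa1, Bag3 and Hsp90ab1 in CPM, and the ratio of Hsp90aa1 to Hsp90ab1, against the percentage of counts from mitochondrially encoded genes in each of the 28 libraries, with the dotted line at 5%. Vorinostat 6, 7 and 9 and wildtype vehicle 2 stand to the right of the line, with a ratio of 0.119 to 0.150, and 24 libraries stand to its left, with a ratio of 0.0680 to 0.0987.

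Of the cell type lists, the erythroid and CA3 pyramidal sums separated the same 4 libraries from the other 24, and the other lists overlapped. The erythroid list, 4 of 4 markers tested and none at 0 in any library, summed to 79.1 to 142 CPM in the 4 and 17.9 to 55.7 CPM in the 24. The CA3 pyramidal list, 5 of 6 tested with Iyd at 0 in at least 1 library, summed to 328 to 382 CPM in the 4 and 435 to 570 CPM in the 24. The microglia list, 6 of 6 tested and none at 0, summed to 330.0 to 398 CPM in the 4 and 264 to 349 CPM in the 24. The astrocyte list, 6 of 6 tested and none at 0, summed to 2417 to 3157 CPM in the 4 and 1977 to 2603 CPM in the 24. CA1 markers summed to 961 to 1221 CPM in the 4 and 1072 to 1491 CPM in the 24. The CA2 pyramidal list was at 171 to 219 CPM in the 4 and 168 to 280 CPM in the 24. The dentate granule, oligodendrocyte, endothelial, pericyte and smooth muscle, and choroid plexus lists overlapped as well. Whether blood, dissection or RNA quality had a part in the chaperone values was not tested.

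Without the 4 libraries, 6 vorinostat, 9 transgenic vehicle and 9 wildtype vehicle libraries remained. The count of the 10 genes at an unadjusted p under 0.05 was then 0 for vorinostat against transgenic vehicle, where 3.84% of 17292 genes stood, 0 for transgenic vehicle against wildtype vehicle (2.38%), and 0 for vorinostat against wildtype vehicle (4.17%), by edgeR. For vorinostat against transgenic vehicle, the intervals that remained ran from -0.04 to 0.13 on the log2 scale for Dnaja1, from -0.05 to 0.16 for Hsp90aa1 and from -0.22 to 0.09 for Bag3.

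Between transgenic and wildtype mice, both on vehicle, none of the 10 genes passed the threshold. For transgenic vehicle against wildtype vehicle, the median log2 fold change of the 10 genes was -0.0019, against 0.000132 over all genes, with 4 genes higher and 6 lower. Of all genes, 50.1% were higher. Dnajb1 was higher in 8 of 9 transgenic vehicle libraries than the wildtype mean, at 51.2 ± 3.19 CPM in transgenic vehicle and 48.6 ± 1.83 CPM in wildtype vehicle libraries (SD, n = 9 and 10), a log2 fold change of 0.07 (SE 0.0430, edgeR unadjusted p = 0.0979, adjusted p = 0.9998). Hspb1 had the widest estimate, 0.29 (SE 0.222, edgeR adjusted p = 0.9998), and Hspa1b stood at 0.13 (SE 0.120). These were, without the 4 libraries, 0.24 (SE 0.232) and 0.08 (SE 0.105). The genes other than Hspa1a, Hspa1b, Hspb1 and Bag3 had more reads and narrower intervals, though not in the order of their reads. The interval of Hsp90ab1 ran from -6.58 to 6.69%, that of Hsph1 from -4.81 to 10.3% and that of Dnajb1 from -0.989 to 11.8%. For Dnaja1 it ran from -10.7 to 9.07%, for Hspa8 from -10.5 to 6.02% and for Hsp90aa1 from -13.8 to 7.82%.

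For vorinostat against wildtype vehicle, 7 of the 10 genes were higher and 3 lower, with a median log2 fold change of 0.05 against 0.00645 over all genes. Of all genes, 51.7% were higher. Dnaja1 averaged 89.7 ± 14.5 CPM in vorinostat and 79.3 ± 8.43 CPM in wildtype vehicle libraries (SD, n = 9 and 10), a log2 fold change of 0.18 (SE 0.0707, edgeR unadjusted p = 0.0173, adjusted p = 0.384). Hsp90aa1 averaged 164 ± 27.3 CPM in vorinostat and 146 ± 19.4 CPM in wildtype vehicle libraries, 0.17 (SE 0.0789, unadjusted p = 0.0391, adjusted p = 0.386). Bag3 averaged 8.66 ± 1.71 CPM in vorinostat and 10.1 ± 1.54 CPM in wildtype vehicle libraries, -0.22 (SE 0.101, unadjusted p = 0.0346, adjusted p = 0.384). Without the 4 libraries these 3 values were 0.07 (SE 0.0409), 0.05 (SE 0.0498) and -0.12 (SE 0.0748). Of the other 7 genes, Hspb1 had the largest value at 0.24 (SE 0.226), and Hsp90ab1 stood at -0.08 (SE 0.0470), Hspa8 at 0.08 (SE 0.0597), Hsph1 at 0.07 (SE 0.0521), Hspa1b at -0.05 (SE 0.122), Dnajb1 at 0.02 (SE 0.0431) and Hspa1a at 0.0033 (SE 0.126), a value whose sign turned with the scaling, with edgeR adjusted p-values from 0.414 to 0.992. Leaving out the 4 libraries, Hspb1 stood at 0.11 (SE 0.264), Hspa1a at 0.11 (SE 0.143), Hsp90ab1 at -0.01 (SE 0.0345), Hspa8 at 0.04 (SE 0.0497), Hsph1 at 0.07 (SE 0.0562), Hspa1b at 0.02 (SE 0.117) and Dnajb1 at 0.04 (SE 0.0468).

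The wider chaperone network was taken from 9 lists of 80 genes, of which 78 were tested. For vorinostat against transgenic vehicle, 17 of the 78 stood at an unadjusted p under 0.05 in edgeR, 11 higher and 6 lower, against 14.4% of all genes. For transgenic vehicle against wildtype vehicle the count was 0 of 78, where 1.33% of all genes stood, and for vorinostat against wildtype vehicle 13 of 78 (16.7%), where 12.6% did. After adjustment 0 were called in each comparison. The count without the 4 libraries at an unadjusted p under 0.05 was 1 of 78 (1.28%) for vorinostat against transgenic vehicle, where 3.84% of all genes stood, and 1 of 78 (1.28%) for vorinostat against wildtype vehicle, where 4.17% did. For vorinostat against transgenic vehicle over all libraries, 50.9% of all genes were higher. The TRiC chaperonin, which folds actin and tubulin, and prefoldin, which hands clients to it, were the most uniform list, with 14 of 14 higher. This list had a median log2 fold change of 0.14, with 3 genes at an unadjusted p under 0.05 in edgeR and 0 called. Of HSP90 co-chaperones 10 of 15 were higher (median 0.07, 6 at an unadjusted p under 0.05), of other J-domain co-chaperones 9 of 12 (median 0.05), and of mitochondrial chaperones 6 of 8 (median 0.08). Other cytosolic HSP70 and HSP110 genes, HSP70 cofactors, heat shock factors and other small heat shock proteins each split evenly, with medians from -0.03 to 0.003.

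These list directions changed without the 4 libraries of high mitochondrial share. For vorinostat against transgenic vehicle, 3 of 14 TRiC and prefoldin genes were then higher (median -0.04), as were 6 of 15 HSP90 co-chaperones (median -0.01), 3 of 12 other J-domain co-chaperones (median -0.02) and 3 of 8 mitochondrial chaperones (median -0.01). Of all genes, 48.3% were then higher. In the 4 libraries themselves, 11 of the 14 TRiC and prefoldin genes were above all 24 other libraries, among them Tcp1, Cct2 and Cct8, against 9.99% of all genes. So were 5 of 12 other J-domain co-chaperones, 4 of 8 mitochondrial chaperones, including Hspd1 and Hspa9, and 3 of 15 HSP90 co-chaperones. Of other cytosolic HSP70 and HSP110 genes 1 of 8 was, and of HSP70 cofactors 1 of 10. Hsf1, 1 of 4 heat shock factors, was below all 24, as were Dnajb5, Bag6, Unc45a and Clpb, against 11.2% of all genes. The other heat shock factors overlapped.

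**Figure D5:**
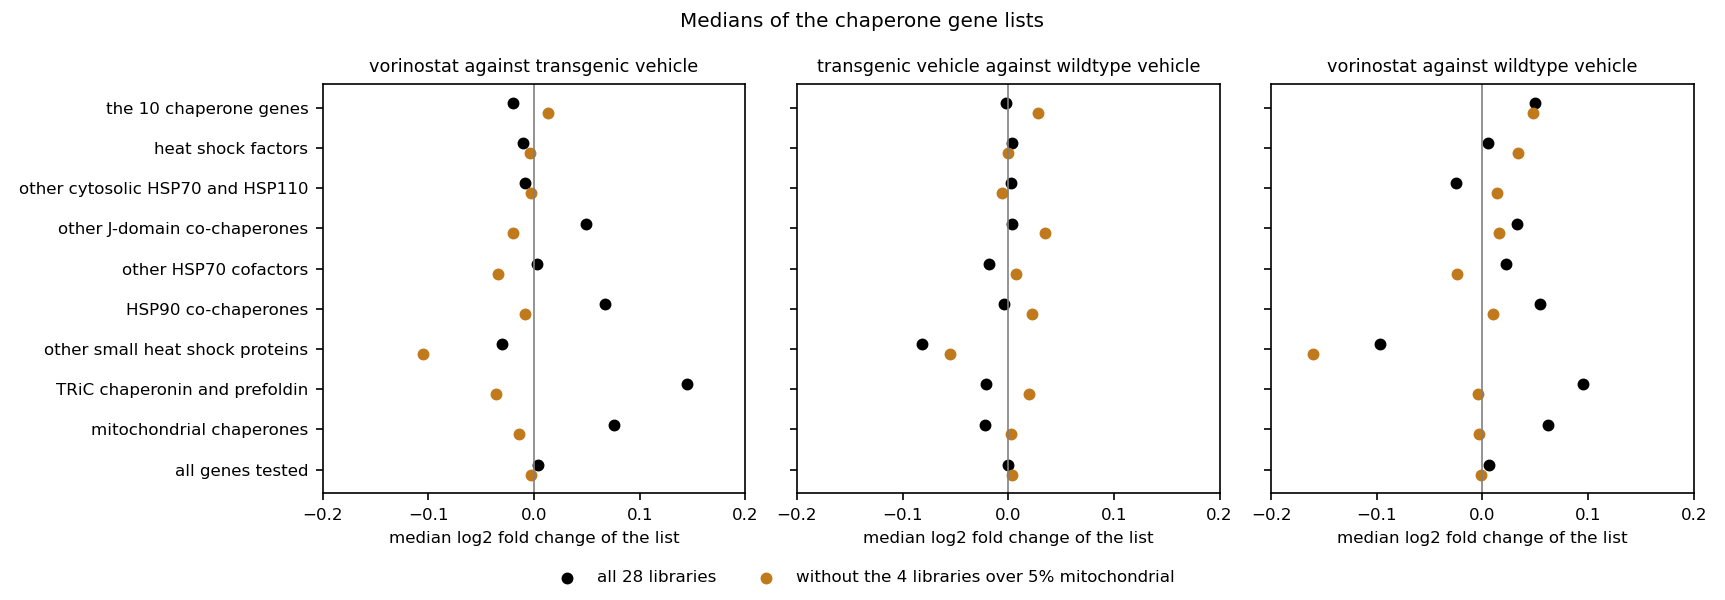
Median log2 fold change of each chaperone list for vorinostat against transgenic vehicle, transgenic vehicle against wildtype vehicle and vorinostat against wildtype vehicle, over all 28 libraries (black) and without the 4 libraries of high mitochondrial share (orange). In the left panel the TRiC chaperonin and prefoldin list is at 0.14 in black and at -0.04 in orange, while the 10 chaperone genes are at -0.02 and 0.01.

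Of single genes in these lists, 0 passed the adjusted threshold, and the values of those with the smallest unadjusted p are given. Hsf2, a factor that can pair with HSF1, averaged 28.8 ± 3.09 CPM in vorinostat and 25.1 ± 1.65 CPM in transgenic vehicle libraries (SD, 9 libraries each). Its log2 fold change was 0.20 (SE 0.0653, edgeR unadjusted p = 0.00494, adjusted p = 0.345), and 0.11 (SE 0.0600) without the 4 libraries. Hsf1, the main heat shock factor, averaged 37.1 ± 6.72 CPM in vorinostat and 42.5 ± 1.11 CPM in transgenic vehicle libraries, -0.20 (SE 0.0828, unadjusted p = 0.0249, adjusted p = 0.345), and -0.04 (SE 0.0434) without the 4. The HSP90 co-chaperones Sugt1 and Ppid stood at 0.17 (SE 0.0641) and 0.19 (SE 0.0791) on the log2 scale, and the TRiC subunit Cct8 at 0.18 (SE 0.0713). Without the 4 libraries these values were 0.06 (SE 0.0551) for Sugt1, 0.01 (SE 0.0468) for Ppid and 0.03 (SE 0.0424) for Cct8. For vorinostat against wildtype vehicle, the HSP90 activator gene Ahsa2 averaged 22.9 ± 1.68 CPM in vorinostat and 20.7 ± 0.797 CPM in wildtype vehicle libraries, 0.15 (SE 0.0445, edgeR unadjusted p = 0.00229, adjusted p = 0.384), and 0.10 (SE 0.0464) without the 4. The other named genes of that comparison were the HSP90 co-chaperones Chordc1 (0.22, SE 0.0829), Sugt1 (0.16, SE 0.0624) and Ppp5c (-0.11, SE 0.0367), Hsf2 (0.16, SE 0.0636) and the autophagy receptor Sqstm1 (-0.10, SE 0.0425), each with an edgeR adjusted p of 0.384. All 5 lay nearer to 0 without the 4 libraries, at 0.10 (SE 0.0750) for Chordc1, 0.07 (SE 0.0552) for Sugt1, -0.06 (SE 0.0316) for Ppp5c, 0.10 (SE 0.0601) for Hsf2 and -0.04 (SE 0.0406) for Sqstm1.

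How the 10 genes varied together was described over the 24 libraries that do not stand apart, after centring log2 CPM on the group means, for all 45 pairs. The correlation was positive in 32 pairs, with a median Pearson r of 0.16. Hspa1a and Hspa1b, which share most of their sequence, had r = 0.63 and Spearman's rho = 0.69, with permutation p = 0.00326 and 0.00052 (adjusted over 45 pairs 0.0489 and 0.0234), and r = 0.56 without the 2 libraries farthest from the median of Hspa1a. It was the 1 pair below 0.05 on both measures. Hspa1b and Hsph1 had the highest r of all pairs, 0.67, with rho = 0.59 (adjusted permutation p = 0.0351 and 0.0932), and r = 0.46 without the 2 farthest libraries. For Dnaja1 and Hsp90aa1, r was 0.56 and rho 0.51 (adjusted permutation p = 0.0489 and 0.146), and r = 0.47 without the 2 farthest. Over all 28 libraries, including the 4 that stand apart, the r of Dnaja1 and Hsp90aa1 was 0.89. Bag3 had r = -0.79 with Dnaja1 over all 28 libraries and -0.33 over the 24 (adjusted permutation p = 0.336).

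Over the same 24 libraries, the genes whose pattern was most like that of the summed Hspa1a and Hspa1b were Dubr (r = 0.79), Gm34583 (0.79), Rasd1 (0.77), Nf2 (0.77) and B3galt5 (0.76). Those most like the mean z-score of all 10 genes were Dubr (r = 0.88), Armh4 (0.80), Gm2115 (0.79), Hyou1 (0.78) and Specc1 (0.78). These are the highest of all tested genes and are given as a description.

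The authors' deposited table of adjusted expression, in log units whose base is not stated, held all 10 genes. In the authors' deposited table, vorinostat minus transgenic vehicle was 0.14 for Dnaja1, 0.15 for Hsp90aa1, -0.14 for Bag3 and -0.13 for Hspa1b, and between -0.06 and 0.08 for the other 6. The values of the 4 libraries of high mitochondrial share overlapped the other 24 in the authors' deposited table, at 5.97 to 6.27 in the 4 against 5.74 to 6.11 in the 24 for Dnaja1, at 7.02 to 7.30 against 6.53 to 7.10 for Hsp90aa1, and at 4.30 to 4.65 against 4.51 to 5.05 for Bag3. The authors' deposited table of coexpression modules, 14 modules over 18014 genes, placed Dnaja1 and Hsp90aa1 together in the purple module of 2666 genes, with membership scores of 0.90 and 0.94. The authors' deposited table placed Hspa1a, Hspa1b, Hsp90ab1 and Bag3 in the green module of 2971 genes, with membership scores of 0.22, 0.58, 0.77 and 0.76. Hspa8, Hsph1, Dnajb1 and Hspb1 were in 4 further modules of the authors' deposited table, so the 10 genes fell into 6 modules.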

How the data were processed

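The authors deposited whole-number counts of reads per gene for each of 28 CA1 libraries. The submitters' processing notes name STAR 2.5.2b, FastQC 0.11.5, Subread 1.5.1 with its featureCounts, and the mm10 genome. Which annotation, which strand setting and which handling of reads that match several genes were used is not given in the sources used here, and the library kit does not mark strand.

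The authors also deposited a table of model-adjusted expression on a log scale, entered here as log2 although its base is not stated (its name mentions a mixed linear model). Their module table, also deposited, holds a membership score and a p-value for each gene and module. Of these, the p-values were not printed.

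Groups were taken from the sample titles. The 10 members and all gene lists were chosen with earlier results of these data known. Of 48709 gene rows, 48349 (99.3%) had a symbol. For the tests, edgeR 4.0.16 (R 4.3.3) fitted robust quasi-likelihood models with TMM scaling to all 28 libraries at once, and 3 contrasts were drawn. The low-count filter (minimum count 10, minimum total 15) left 17009 genes. Benjamini-Hochberg adjustment ran over those genes, with a threshold of 0.05, and intervals are at 95%. The fit was checked on simulated counts, which held no libraries set apart by mitochondrial share, so the check does not cover that feature. CPM denotes counts scaled to the library total after TMM, except for marker and hemoglobin sums, which used the plain total. CPM per kb divides it by the length of the merged exons in GENCODE for GRCm38, which is the mm10 assembly.

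Shared sequence was measured by cutting the GENCODE transcripts of each member into all 50-base windows, the read length, and looking for each window in the transcripts of all other genes, with no mismatch and on both strands. Promoter sequences are from RefSeq (GRCm38.p6) and coding sequences from GENCODE. Correlations were permuted 100000 times, two-sided. The 117 pairs of libraries within a group differed by more than sampling noise, with a chi-square per degree of freedom of 2.53 to 54.9, and 0 were identical.

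All 10 members were named in every comparison. Of the other listed genes, those with an unadjusted p under 0.05 were named, at most 6 per comparison by smallest p, since 0 passed the adjusted threshold; 1 gene that this rule names, and the list that holds it, are not reported here. Alternatives were other scalings, no filter, DESeq2 1.42.0, voom of limma 3.58.1, fits on the compared groups only, a replicate block, the mitochondrial share as a covariate, the Hspa1a and Hspa1b counts summed, and fits without each library or without the 4 libraries of high mitochondrial share.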

Additional observations from a re-analysis of the deposited data

Results flagged for a closer look

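In 3 of the 30 sets formed by a gene and a group, 1 library stood far from the others by Dixon's criterion, which chance meets in about 5% of sets. Dnajb1 was at 58.4 CPM in vorinostat 4, the highest of 9, with the next library at 50.7 CPM. Dnajb1 was also at 52.8 CPM in wildtype vehicle 5, the highest of 10, with the next at 49.5 CPM. Dnaja1 was at 101 CPM in wildtype vehicle 2, the highest of 10, with the next at 82.8 CPM. Wildtype vehicle 2 is 1 of the 4 libraries with a mitochondrial share over 5%.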

How the results depend on the processing

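Of 1134 values of the 30 fold changes under the alternatives, 1077 kept their direction, 57 reversed and 0 were called, with a lowest adjusted p of 0.176. The 10 genes had 0 calls in every comparison under each alternative run. Reversals touched values near 0. For vorinostat against transgenic vehicle, Hspa1a was -0.006132 with voom. For transgenic vehicle against wildtype vehicle, Bag3 was 0.003771 with voom, and Dnaja1 0.01448 with the mitochondrial share as a covariate. For vorinostat against wildtype vehicle, Hspa1a was -0.0001477 with RLE factors and -0.006886 with voom, and Hspa1b 0.0472 with the covariate. Without the 4 libraries of high mitochondrial share, Hspa1a was 0.02871 and Dnaja1 0.02735 for transgenic vehicle against wildtype vehicle, and Hspa1b 0.01603 for vorinostat against wildtype vehicle. The cause was not tested.

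Leaving out each library in turn gave these ranges where a sign reversed. For vorinostat against transgenic vehicle, Hspa1a ran from -0.07903 to 0.05829 and Hspb1 from -0.1172 to 0.04304. For transgenic vehicle against wildtype vehicle, Hspa1a ran from -0.05978 to 0.04167, Dnaja1 from -0.03696 to 0.02552, Hsp90ab1 from -0.01113 to 0.00734 and Bag3 from -0.0482 to 0.02646. For vorinostat against wildtype vehicle, Hspa1a ran from -0.08431 to 0.05292, Hspa1b from -0.1165 to 0.0134 and Dnajb1 from -0.01056 to 0.03909. Genes called ran from 0 to 1 for vorinostat against transgenic vehicle (1 without vorinostat 3) and from 0 to 3 for vorinostat against wildtype vehicle (3 without wildtype vehicle 2, 1 without wildtype vehicle 5). DESeq2 called 1 gene for vorinostat against transgenic vehicle.

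Libraries of 1 replicate number did not vary together. Correlations of same-numbered libraries ran from -0.247 to 0.239, from -0.339 to 0.408 and from -0.213 to 0.221, and passed 0.1 in 3, 3 and 1 of 9 pairs, so the numbers were not taken as pairing. These are the numbers in the sample titles, and the authors' own codes for the libraries run in another order. Pairing or batches by those codes were not tested here, and neither these correlations nor the replicate block can show them. With the replicate number as a block, 0 of the 10 genes were called, 1 gene in all was called for vorinostat against wildtype vehicle, and Hspa1a was -0.005902 for vorinostat against transgenic vehicle and -0.01473 for vorinostat against wildtype vehicle. Depth limits Hspb1 and Hspa1a most, at 3 to 26 and 29 to 75 reads per library.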
